A study of Arabidopsis thaliana with 4 samples.

Results

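The 9 genes described here are the NAC transcription factors of Arabidopsis thaliana best known from stress responses and leaf senescence: NAC019 (AT1G52890), NAC055 (AT3G15500), RD26 (AT4G27410), ATAF1 (AT1G01720), ATAF2 (AT5G08790), NAC102 (AT5G63790), NAC032 (AT1G77450), NAP (AT1G69490) and ORE1 (AT5G39610). Their probes were found by locus, as those whose gene name on the array, cut at the dot, is one of these loci. The 9 genes and the gene lists below were chosen with earlier results of these data known. Their counts beside the shares of all genes are therefore descriptions and not tests. The array held 21500 gene probes, each for a different locus, and each of the 9 genes had 1 probe. All 9 were among the 18854 genes tested. Each of their probes was well above background in all 8 channels, with no saturated and no flagged spot.

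The tissue was rosette leaf of 3-week-old plants of the Col-0 ecotype, with no treatment. OX17 and OX7 were independent first-generation (T1) plants carrying the wheat GSK3/Shaggy-like kinase TaSK5 behind the 35S promoter, a viral promoter active in most plant tissues and not restricted to leaf. The wild type was Col-0 without the transgene. Each transformant was hybridised with wild-type RNA on 2 Agilent 2-colour arrays, with TaSK5 RNA carrying Cy5 on the replicate 1 array and Cy3 on the replicate 2 array. The arrays of a transformant are repeat hybridisations of 1 RNA pair and were averaged, so n = 2 transformants, each a single plant with its own insertion. Whether both array pairs shared a wild-type RNA sample is not given in the sources used here.

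NAC proteins are a large family of plant transcription factors that bind DNA through a conserved N-terminal domain. NAC019, NAC055 and RD26 are close relatives induced by drought, abscisic acid (ABA) and jasmonate, and act downstream of the jasmonate factor MYC2. ATAF1, ATAF2, NAC102 and NAC032 form the ATAF clade, which responds to wounding, ABA and pathogens. NAP and ORE1 promote leaf senescence: NAP raises ABA synthesis, and ORE1 acts downstream of ethylene signalling and activates nucleases and chlorophyll breakdown genes. A link to GSK3-like kinases is known for RD26, which the Arabidopsis kinase BIN2 phosphorylates and stabilises, and which opposes the brassinosteroid factor BES1.

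The TaSK5 channels had 86.4% to 95.9% of gene probes well above background, and the wild-type channels 88.9% to 96.0%. The spread of log2 ratios over all genes was wider in OX17, with an SD of 0.50, than in OX7, with an SD of 0.24. All 5 leaf markers fixed for this tissue were well above background in all 8 channels, with summed signals of 107500 to 180000 in TaSK5 channels and 106100 to 169200 in wild-type channels. RBCS1A and RCA, among the 5, were saturated in 7 of 8 channels, so these sums are only bounds. CA1, a carbonic anhydrase gene, had log2 ratios of -2.42 and -2.20 on the OX17 arrays and -0.51 and -0.13 on the OX7 arrays, and the antenna gene LHCB1.3 had -0.63 and -0.92 on the OX17 arrays and 0.32 and 0.87 on the OX7 arrays. Both were low on the OX17 arrays, the arrays of the largest NAC ratios, and their part in those ratios was not tested. LHCB2.1 had no common direction there, at -0.16 and 0.34. The saturated RBCS1A and RCA had -0.55 and 0.75, and -0.55 and 0.93, and saturation leaves the direction of these ratios unreadable. Of 13 markers of flower, root and seed, 8 passed the filter on dim probes, and their list summed to 1667 to 1892 in TaSK5 channels and 1812 to 2338 in wild-type channels. No probe for the wheat transgene was used here, so its level in OX17 and OX7 was not analysed here.

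Compared with wild type, 8 of the 9 NAC genes had a higher signal in TaSK5 leaves on all 4 arrays, while NAC102 had no common direction. Among the 8, ATAF2 and NAC032 were close to wild type in OX7, with mean log2 ratios of 0.03 and 0.05. The median log2 ratio over the 9 genes was 0.98, with 1.301 in OX17 and 0.41 in OX7, against -0.01 over all genes tested. NAC019 and RD26 were at least 2-fold above wild type on every array of both transformants. ORE1 was 8.37-fold and NAP 5.61-fold above wild type in OX17, against 1.25-fold and 1.33-fold in OX7. The larger part of this contrast lay in the wild-type channels, which differed between the array pairs by -1.92 for ORE1 and -1.16 for NAP. The TaSK5 channels of OX17 and OX7 differed by 0.82 for ORE1 and 0.92 for NAP. No gene of the genome-wide set passed the test, so all of these are descriptions of 4 arrays.

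In the limma fit across all 18854 genes, an adjusted p under 0.05 was reached by 0 genes in the higher direction (0%) and by 0 in the lower one (0%), while 825 had an unadjusted p under 0.05, fewer than the 942.7 that this threshold would give with no change in any gene. Unadjusted p-values of single genes are read against that number. The adjusted p was 0.846 for 8 of the NAC genes and 0.994 for NAC102. When the 4 arrays were entered as independent samples, which repeat hybridisations are not, 66 genes were higher and 13 lower. NAC019 then had an adjusted p of 0.011 and RD26 one of 0.0306 in the limma fit, while the other 7 NAC genes did not pass. With dye orientation as a replicate block in that fit, the adjusted p was 0.126 for NAC019 and 0.184 for RD26, and no NAC gene passed. Being higher on all 4 arrays was met by 8 of 9 NAC genes and by 12.1% of all genes tested. Being lower on all 4 was met by 0 of 9 and by 12% of all genes. When each array was centred on its median without correction for brightness, only NAC019, NAC055, RD26 and ORE1 were still higher on all 4 arrays, which makes 4 of 9, against 6.97% of all genes. In RNA of whole leaves, fewer cells of a type and less RNA per cell cannot be told apart, in either genotype.

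**Figure D1:**
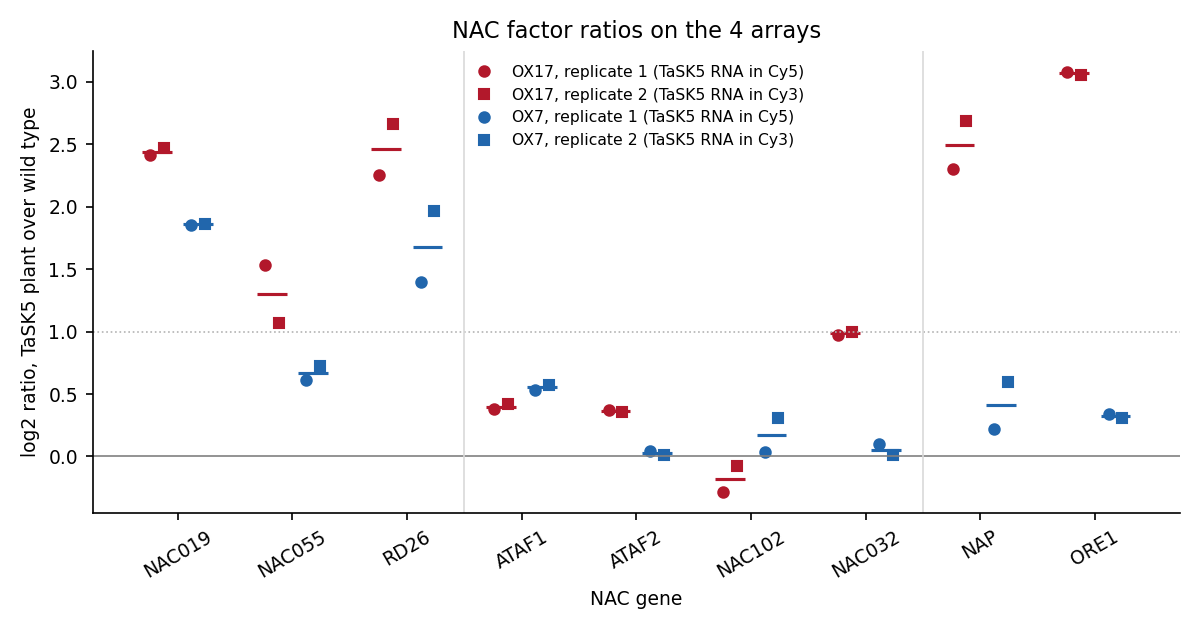
Log2 ratio of TaSK5 plant over wild type (vertical axis) for the 9 NAC genes, with OX17 in red left of OX7 in blue; circles are replicate 1, squares replicate 2, short lines the mean of the 2 arrays, and the dotted line marks a 2-fold ratio. NAC019 and RD26 lie above the dotted line on all 4 arrays, whereas NAC055, NAP and ORE1 lie above it on the OX17 arrays alone.

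The drought and jasmonate group, NAC019, NAC055 and RD26, was above wild type in both transformants. NAC019 had log2 ratios of 2.41 and 2.47 on the OX17 arrays and of 1.85 and 1.86 on the OX7 arrays. Both transformants were thus far above wild type, with the dye orientations only 0.05 apart in OX17 and 0.02 apart in OX7. OX17 stood above OX7, an order that reversed when arrays were scaled to one spread. The mean was 2.15 ± 0.41 (SD, n = 2 transformants), a 4.43-fold ratio with an unadjusted limma p of 0.00162. It was the ninth highest mean among all genes tested, at rank 30 in OX17 and rank 16 in OX7.

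RD26 followed closely. Its log2 ratios were 2.26 and 2.66 on the OX17 arrays and 1.39 and 1.96 on the OX7 arrays, so every array was above 2-fold. The arrays of the transformants did not overlap, as for 50% of all genes tested. Their order reversed when arrays were scaled to one spread, with OX17 minus OX7 at -0.41. The mean was 2.07 ± 0.55 (SD, n = 2), a 4.19-fold ratio with an unadjusted limma p of 0.00353, at rank 11 of all genes. In both transformants the Cy3-labelled TaSK5 sample gave the larger ratio, with dye gaps of 0.40 in OX17 and 0.57 in OX7.

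NAC055, which shares the jasmonate role of NAC019, had smaller ratios. They were 1.53 and 1.07 on the OX17 arrays and 0.61 and 0.73 on the OX7 arrays, above 0 throughout but above 2-fold in OX17 only. The mean was 0.98 ± 0.45 (SD, n = 2), a 1.98-fold ratio with an unadjusted limma p of 0.0179, at rank 201. Its log2 signal was 8.54 and 8.03 in OX17 and 7.92 and 7.78 in OX7, against 7.01 and 6.96 in wild type of the OX17 pair and 7.31 and 7.05 in wild type of the OX7 pair. Every TaSK5 channel lay above every wild-type channel, by a narrower gap than for its 2 relatives. The size of the ratio depended on the processing, with a mean of 0.73 without background correction, 1.21 with a smaller offset and 1.47 from the scanner program's own log ratios.

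NAC019 and RD26 were 2 of the 46 genes at least 2-fold higher on all 4 arrays, a share of 0.244% of all genes tested. The same 2 were the NAC genes at least 2-fold higher on both OX7 arrays, as were 0.488% of all genes. The channel levels behind these ratios were close in wild type. NAC019 had log2 signals of 11.67 and 11.53 in OX17 and 10.90 and 10.91 in OX7, against 9.26 and 9.06 in wild type of the OX17 pair and 9.05 and 9.04 in wild type of the OX7 pair. The 4 wild-type channels lay within 0.22 of each other, and every TaSK5 channel lay above all of them. RD26 had 11.98 and 12.63 in OX17 and 11.01 and 11.50 in OX7, against 9.72 and 9.97 in wild type of the OX17 pair and 9.62 and 9.54 in wild type of the OX7 pair. Here too, no wild-type channel reached a TaSK5 channel.

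The ATAF clade gave small ratios, and its members differed from each other. ATAF1, an ABA-linked factor that activates the ABA synthesis gene NCED3 and represses the chloroplast regulator GLK1, had log2 ratios of 0.38 and 0.42 on the OX17 arrays and of 0.53 and 0.58 on the OX7 arrays. It was the NAC gene on which the transformants came closest, with a mean of 0.48 ± 0.11 (SD, n = 2), a 1.39-fold ratio and an unadjusted limma p of 0.0225. Among all genes these ratios put ATAF1 at rank 2427 in OX17 and rank 417 in OX7. Median centring took 1 OX17 array to -0.13, so its common direction did not hold under that setting.

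NAC032, a stress-induced factor that represses anthocyanin synthesis genes, differed between the transformants. Its log2 ratios were 0.97 and 1.00 on the OX17 arrays, just short of 2-fold, and 0.10 and 0.01 on the OX7 arrays, close to wild type. The mean was 0.52 ± 0.66 (SD, n = 2), with an unadjusted limma p of 0.169. ATAF2, a wound-induced factor that activates the nitrilase gene NIT2, showed the same order at a smaller size, with 0.37 and 0.36 in OX17 and 0.05 and 0.01 in OX7. Its mean of 0.20 ± 0.24 (SD, n = 2) was below the spread between the plants.

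NAC102, described in low-oxygen responses of germinating seed, had opposite signs in the transformants. Its log2 ratios were -0.28 and -0.08 on the OX17 arrays and 0.03 and 0.30 on the OX7 arrays. The mean of -0.01 ± 0.25 (SD, n = 2) had an unadjusted limma p of 0.973, and its sign turned under several settings.

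NAP and ORE1, the senescence factors, had their large ratios in OX17. ORE1 had log2 ratios of 3.08 and 3.05 on the OX17 arrays and of 0.34 and 0.31 on the OX7 arrays. That is an 8.37-fold ratio in OX17, the sixth highest of all genes in that plant, and a 1.25-fold ratio in OX7, at rank 1070. The mean of 1.69 ± 1.94 (SD, n = 2) had an unadjusted limma p of 0.124.

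NAP behaved alike, with 2.30 and 2.68 on the OX17 arrays and 0.22 and 0.60 on the OX7 arrays. This corresponded to 5.61-fold in OX17, at rank 22, and 1.33-fold in OX7, at rank 743. The mean was 1.45 ± 1.47 (SD, n = 2), with an unadjusted limma p of 0.0977. Median centring took 1 OX7 array of NAP to -0.02, so the OX7 part of its direction rests on the correction for brightness. On both OX17 arrays, 5 NAC genes were at least 2-fold higher (NAC019, NAC055, RD26, NAP and ORE1), as were 2.59% of all genes tested.

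**Figure D2:**
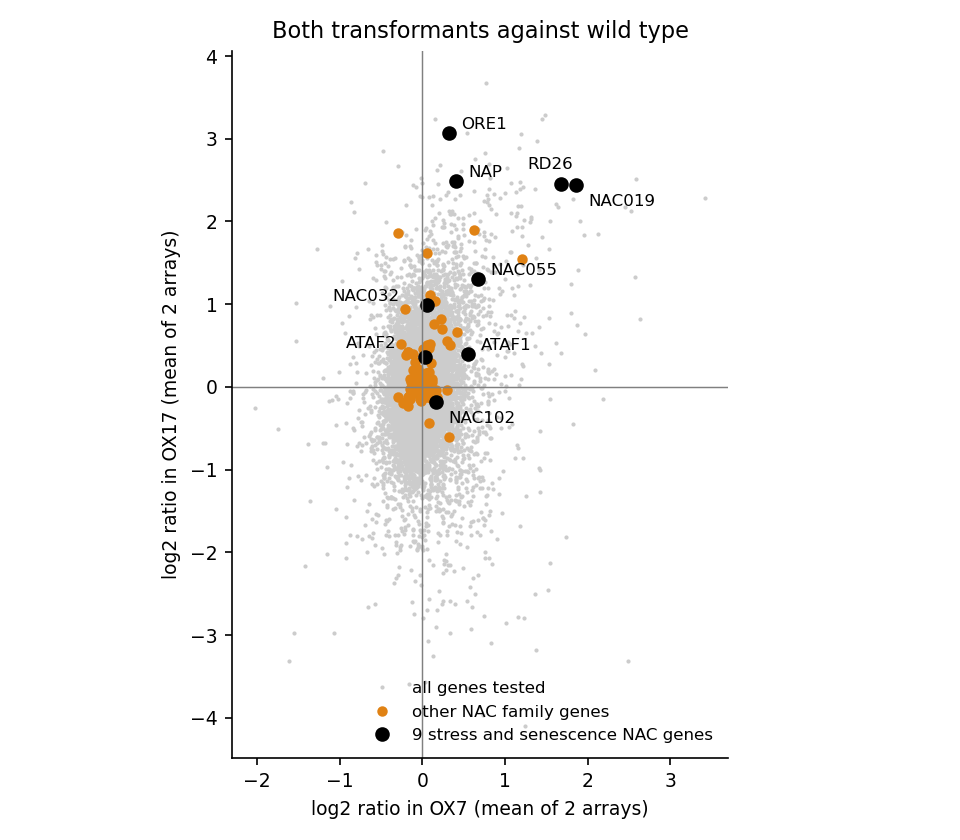
Mean log2 ratio over wild type in OX17 (vertical axis) against that in OX7 (horizontal axis) for all 18854 genes tested (grey), the 70 other NAC family genes (orange) and the 9 NAC genes (black, named). ORE1 and NAP lie high on the OX17 axis but at 0.32 and 0.41 on the OX7 axis. NAC019 and RD26 lie far out on both.

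How the transformants differed was read gene by gene, as OX17 minus OX7, and has no test because each is 1 plant. The arrays of the 2 transformants did not overlap for any of the 9 genes, nor for 50% of all genes tested. OX17 lay above OX7 without overlap for 7 of the 9 and for 25% of all genes. The differences of log2 ratios were 2.74 for ORE1, 2.08 for NAP, 0.93 for NAC032, 0.78 for RD26, 0.63 for NAC055, 0.58 for NAC019, 0.34 for ATAF2, -0.16 for ATAF1 and -0.35 for NAC102. ORE1 and NAP were at least 2-fold higher in OX17 than in OX7 without overlap, as were 2.7% of all genes tested. The ratios of all genes also spread more widely in OX17. When arrays were scaled to one spread, the difference was -0.70 for NAC019 and -0.41 for RD26, opposite in sign, and 0.075 for NAC055, while it was 1.84 for ORE1 and 1.32 for NAP. Without OX7 replicate 1 the RD26 difference was 0.50, and without OX17 replicate 1 the NAC055 difference was 0.40.

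A ratio between a TaSK5 channel and a wild-type channel can differ between the array pairs through either channel, so levels were set across arrays and compared within each dye orientation. The ratio difference of a gene is its TaSK5 channel difference minus its wild-type channel difference. For ORE1, the log2 signal was 11.34 and 11.21 in OX17 and 10.52 and 10.39 in OX7, against 8.26 and 8.15 in wild type of the OX17 pair and 10.19 and 10.08 in wild type of the OX7 pair. The larger part of the difference therefore lay in the wild-type channels, which on the OX17 arrays stood at -1.92 relative to the OX7 arrays in both dye orientations, while the TaSK5 channels differed by 0.82.

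The NAP levels showed the same layout. They were 13.66 and 13.57 in OX17 and 12.64 and 12.76 in OX7, against 11.37 and 10.89 in wild type of the OX17 pair and 12.42 and 12.16 in wild type of the OX7 pair. OX17 exceeded OX7 by 0.92 in the TaSK5 channels, and wild type of the OX17 pair stood at -1.16 relative to wild type of the OX7 pair. NAP and ORE1 were the 2 NAC genes whose wild-type channels were at least 2-fold lower in the OX17 pair in both dyes, as were 0.769% of all genes tested. Over all genes the SD of this wild-type difference was 0.40, and that of the TaSK5 channel difference was 0.50. The cause of these wild-type differences was not tested.

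**Figure D3:**
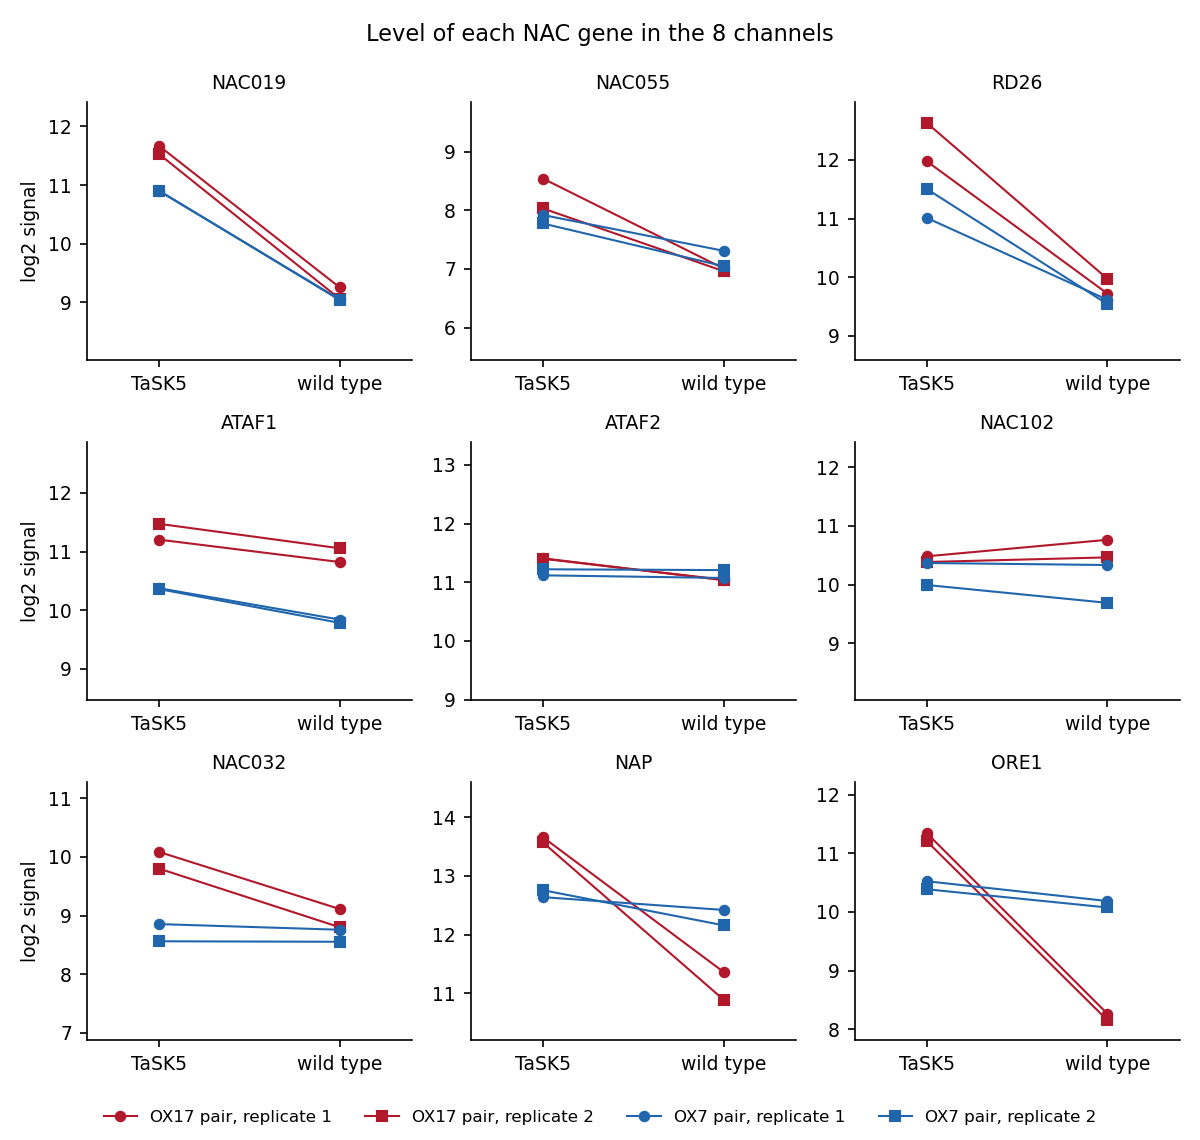
Log2 signal of each NAC gene in the TaSK5 and wild-type channel of each array, 1 panel per gene, with lines joining the channels of an array (OX17 pair red, OX7 pair blue, circles replicate 1, squares replicate 2); every panel spans the same height in log2 units. For NAC019 the 4 wild-type points nearly coincide, whereas for ORE1 and NAP the wild-type points of the OX17 pair lie below those of the OX7 pair.

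NAC032 was the reverse case. Its log2 signal was 10.09 and 9.80 in OX17 and 8.86 and 8.56 in OX7, against 9.11 and 8.80 in wild type of the OX17 pair and 8.76 and 8.55 in wild type of the OX7 pair. Here the TaSK5 channels carried the difference, at 1.23, with 0.30 in wild type. It was the 1 NAC gene of 9 whose TaSK5 channels were at least 2-fold higher in OX17 than in OX7 in both dyes, as were 1.98% of all genes tested.

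ATAF1 differed between the array pairs in both genotypes at once. Its log2 signal was 11.20 and 11.47 in OX17 and 10.38 and 10.36 in OX7, against 10.82 and 11.06 in wild type of the OX17 pair and 9.84 and 9.78 in wild type of the OX7 pair. The pairs differed by 0.97 in TaSK5 channels and by 1.13 in wild-type channels, about 2-fold each, and these nearly cancelled in the ratio. The similar ATAF1 ratios of OX17 and OX7 thus stood on different levels.

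For the other 5 genes the wild-type channel differences were smaller than for ORE1, NAP and ATAF1. NAC102 differed by 0.25 in TaSK5 channels and by 0.60 in wild-type channels, the largest wild-type difference of these 5. NAC019 differed by 0.70, RD26 by 1.05, NAC055 by 0.44 and ATAF2 by 0.24 in TaSK5 channels, against 0.11 for NAC019, 0.27 for RD26, -0.19 for NAC055 and -0.10 for ATAF2 in wild-type channels. All 9 genes had a higher TaSK5 signal in OX17 than in OX7 in both dyes, as did 33.9% of all genes tested, with a median difference of 0.82 against -0.0012 over all genes, while their wild-type differences took both signs around a median of 0.11. All 4 TaSK5 channels lay above all 4 wild-type channels for 5 of the 9 genes (NAC019, NAC055, RD26, NAP and ORE1) and for 2.74% of all genes tested.

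**Figure D4:**
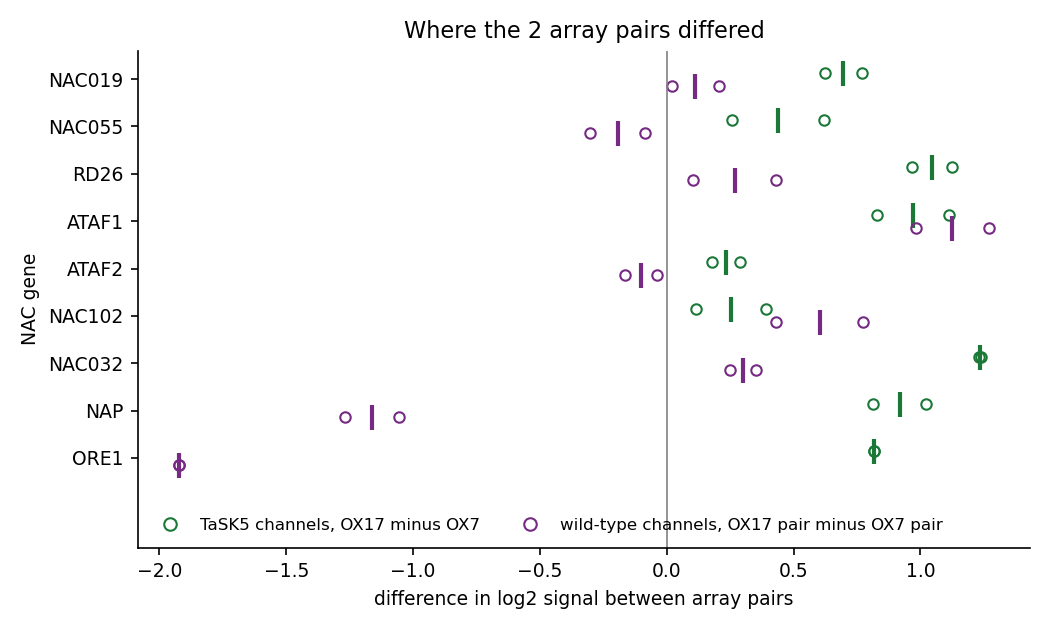
Difference in log2 signal between the array pairs (horizontal axis) for each NAC gene, for the TaSK5 channels (green, OX17 minus OX7, upper marks) and the wild-type channels (purple, OX17 pair minus OX7 pair, lower marks); open circles are the 2 dye orientations and bars their mean. The wild-type marks of ORE1 and NAP lie at -1.92 and -1.16, whereas ATAF1 has both marks near 1.

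The 9 genes were set beside the rest of their family. By annotation the array held 91 NAC genes, of which 79 were tested, leaving 70 besides the 9. Among those 70 the median log2 ratio was 0.05. All 4 arrays were above wild type for 11 of them, near the 12.1% of all genes tested, and below it for 5, against 12% of all genes, and 1 was at least 2-fold higher throughout. That gene, NAC047 (AT3G04070), had the highest mean of the 70, 1.37 ± 0.24 (SD, n = 2), with 1.51 and 1.59 on the OX17 arrays and 1.02 and 1.38 on the OX7 arrays.

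Next came NAC3 (AT3G29035), also called ORE1 SISTER1, a senescence-promoting paralogue of ORE1. Its ratios were 1.82 and 1.97 on the OX17 arrays and 0.58 and 0.66 on the OX7 arrays, for a mean of 1.26 ± 0.90 (SD, n = 2). As for ORE1, its wild-type channels were lower in the OX17 pair: the differences were -0.22 in the TaSK5 channels and -1.49 in the wild-type channels. JUB1 (NAC042, AT2G43000), a NAC factor that delays senescence, followed with 0.83 ± 1.10 (SD, n = 2), from 1.62 in OX17 and 0.05 in OX7. The lowest means were small, at -0.21 for NAC058 (AT3G18400), -0.21 for NAC088 (AT5G18300) and -0.20 for NAM (AT1G52880).

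Of 18 genes reported to be activated by members of the group, 17 were on the array and tested. None passed the limma test. All 4 arrays were above wild type for 10 of them, against 12.1% of all genes tested, and below it for 0, and their median log2 ratio was 0.58, with 0.87 in OX17 and 0.27 in OX7. The highest was the ATAF2 target NIT2 (AT3G44300), a nitrilase, at 1.98 ± 0.20 (SD, n = 2), with 1.88 and 1.81 on the OX17 arrays and 2.18 and 2.07 on the OX7 arrays. ATAF2 itself was at 0.37 in OX17 and 0.03 in OX7, so the largest ratio among these targets stood beside one of the smallest among the factors.

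Targets of NAC019 and NAC055 included the jasmonate synthesis gene LOX2, at 1.69 ± 0.71 (SD, n = 2), and the storage protein gene VSP1, at 0.92 ± 0.73 (SD, n = 2). LOX2 had 2.19 in OX17 and 1.19 in OX7, whereas VSP1 had 0.41 in OX17 and 1.43 in OX7. BSMT1, which methylates salicylic acid and is a target of NAC019, NAC055 and RD26, stood at 1.58 in OX17 and -0.03 in OX7, and the protease gene ERD1 at 0.87 in OX17 and -0.05 in OX7. The ratios of BSMT1 and ERD1 in OX7 were near 0 while NAC019 was 3.62-fold and RD26 3.20-fold above wild type there. UGT74F2, also a target of NAC019, NAC055 and RD26, was named after its values were seen. It had 1.22 in OX17 and 0.21 in OX7 and was above wild type on every array. Between the array pairs UGT74F2 differed by -0.57 in TaSK5 channels and by -1.58 in wild-type channels.

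The NAP targets HAI1, a clade A protein phosphatase gene, and AAO3, an ABA synthesis gene, averaged 1.62 ± 0.95 and 0.57 ± 0.42 (SD, n = 2 each). HAI1 was at 2.29 in OX17 and 0.94 in OX7. Of the 4 listed ORE1 targets, BFN1, a senescence nuclease, stood at 0.04 ± 0.03 (SD, n = 2), with 0.02 in OX17 and 0.06 in OX7, and the ribonuclease gene RNS3 at -0.13 ± 0.16 (SD, n = 2), the smallest of the list, with -0.24 in OX17 and -0.01 in OX7. The other two were named after their values were seen. The ethylene synthesis gene ACS2 had 0.87 in OX17 and 0.43 in OX7 and was above wild type on every array, and the sucrose transporter gene SWEET15 had 0.02 in OX17 and 0.32 in OX7. In OX17, where ORE1 was 8.37-fold above wild type, these 4 targets thus ranged between -0.24 and 0.87. This range leaves out chlorophyll breakdown genes, which were listed for senescence NACs together. Between the array pairs, ORE1 itself differed by 0.82 in TaSK5 channels and by -1.92 in wild-type channels.

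NYE1 and NYC1, chlorophyll breakdown genes, had 0.98 and 0.40 in OX17 and 0.18 and 0.14 in OX7. PAO, a further gene of this kind named after its values were seen, had 0.96 in OX17 and 0.05 in OX7. The ATAF1 target NCED3 had 0.67 in OX17 and 0.86 in OX7 (mean 0.77 ± 0.14, SD, n = 2), and like ATAF1 its level was higher on the OX17 arrays in both genotypes, by 0.80 in TaSK5 channels and 0.99 in wild-type channels. Among 9 senescence marker genes, 5 were above and 0 below wild type on every array, against 12.1% above and 12% below among all genes tested, with a median log2 ratio of 0.57. Their summed signal was 12420 to 27120 in TaSK5 channels and 6978 to 13890 in wild-type channels, so the ranges overlapped. Of these markers, 4 were named after their values were seen. SAG13 had 2.88 in OX17, from 1 array, and 1.18 in OX7, SEN1 had 0.53 in OX17 and 1.62 in OX7, and the regulator WRKY53 had 0.73 in OX17 and 1.41 in OX7. The WRKY53 signal was higher on the OX17 arrays in both genotypes, by 2.04 in TaSK5 channels and 2.72 in wild-type channels. SEN1 differed between the array pairs by -0.22 in TaSK5 channels and 0.87 in wild-type channels. SAG12, the classical late marker, had 0.07 in OX17 and 0.05 in OX7.

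Of 9 genes reported to be repressed by the group, 7 were tested, of which 2 were above and 1 below wild type on every array, against 12.1% and 12% of all genes tested, with a median of 0.29 (0.46 in OX17 and -0.05 in OX7). The defensin gene PDF1.2A, listed as lower with ATAF2 over-expression, had the highest mean, 0.78 ± 1.72 (SD, n = 2), from 2.00 in OX17 and -0.44 in OX7. Its signal was higher on the OX17 arrays in both genotypes, by 4.70 in TaSK5 channels and 2.26 in wild-type channels. ICS1, the salicylic acid synthesis gene repressed by NAC019, NAC055 and RD26, had 0.84 in OX17 and 0.11 in OX7. The pathogenesis gene PR1, also listed as lower with ATAF2 over-expression, stood at 0.31 and the ATAF1 target GLK1 at 0.29 on average. Both brassinosteroid-inactivating genes repressed by ATAF2, BAS1 and SOB7, were near wild type at -0.10 and -0.09.

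**Figure D5:**
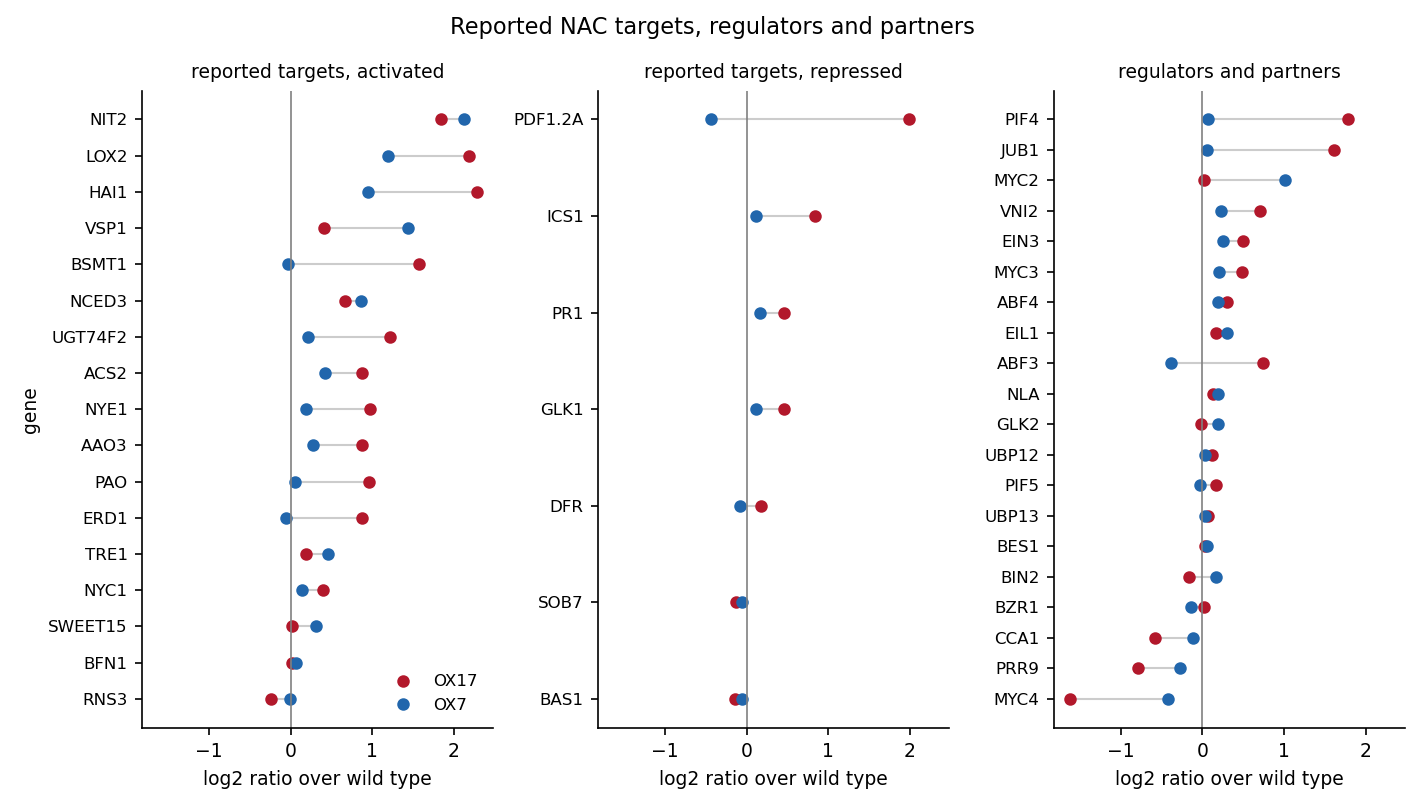
Mean log2 ratio over wild type (horizontal axis) in OX17 (red) and OX7 (blue) for reported activated targets, reported repressed targets, and regulators and partners of the NAC genes, each list ordered by its mean. NIT2, LOX2 and HAI1 stand highest among activated targets, while PIF4 and MYC2 were above wild type mainly in 1 transformant each.

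Regulators and partners of the NAC factors were tested for 20 of 24 listed genes, with ABI5 and EEL not above the filter on dim probes and EIN2 and ABF2 not analysed here. Wild type was exceeded on every array by 5 of the 20, and 3 were below it on every array, against 12.1% and 12% of all genes tested, with a median log2 ratio of 0.12. PIF4, which activates ORE1 in darkness, had the highest mean, 0.93 ± 1.22 (SD, n = 2), with 1.84 and 1.73 on the OX17 arrays and -0.10 and 0.22 on the OX7 arrays. Between the array pairs its TaSK5 channels differed by -0.34 and its wild-type channels by -2.07, so that, as for ORE1, wild type was lower in the OX17 pair, while the TaSK5 channels differed in the opposite direction to those of ORE1.

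MYC2, the activator of NAC019, NAC055 and RD26, was near wild type in OX17, at -0.01 and 0.04, and above it in OX7, at 0.94 and 1.09. Its levels were higher on the OX17 arrays in both genotypes, by 0.56 in TaSK5 channels and 1.56 in wild-type channels. MYC4 had the smallest mean of the list, -1.02 ± 0.85 (SD, n = 2), and the clock gene PRR9 the next, -0.53 ± 0.36 (SD, n = 2), both lower on all 4 arrays. MYC4 had -1.62 in OX17 and -0.42 in OX7. Between the array pairs it differed by -0.03 in TaSK5 channels and 1.17 in wild-type channels, and PRR9 by 0.09 and 0.61.

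BIN2, the Arabidopsis GSK3-like kinase that phosphorylates RD26, had -0.16 in OX17 and 0.17 in OX7, with a mean of 0.00 ± 0.23 (SD, n = 2). BES1 stood at 0.04 ± 0.02 (SD, n = 2). VNI2 (NAC083), a NAC factor that interacts with other NACs and represses, had 0.70 in OX17 and 0.23 in OX7, the OX7 value coming from replicate 2 alone because a spot was left out.

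Genes most like each subgroup over the 4 arrays were found by the distance between log2 ratio profiles. Closest to the mean profile of NAC019, NAC055 and RD26 were JR1 (AT3G16470) at 0.18, AT1G52000 at 0.27 and JRG21 (AT3G55970) at 0.30, of which JR1 and JRG21 are jasmonate-responsive genes. JR1 had 1.98 and 2.00 on the OX17 arrays and 1.18 and 1.42 on the OX7 arrays. Closest to NAP and ORE1 were CYP71B23 (AT3G26210) at 0.30, AFP3 (AT3G29575) at 0.41 and GSTU4 (AT2G29460) at 0.51. In these 3 genes the TaSK5 channels held the larger part of the difference between the array pairs, with 2.21 in TaSK5 channels and -0.26 in wild-type channels for CYP71B23. The ATAF clade's nearest genes, AT3G05250, AT1G07470 and AT2G29210, were 0.05 to 0.07 away from a profile of small ratios. Among the 9 genes themselves, the closest pair was NAC019 and RD26 at 0.53, whereas NAC019 and its close relative NAC055 were 2.36 apart and NAP and ORE1 0.92 apart.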

How the data were processed

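Per the file headers, Agilent Feature Extraction 7.5.1 read the arrays and gave the mean and background intensity of each spot and a log10 ratio of Cy5 over Cy3. The authors also deposited a table of processed log2 ratios; the submitters' processing notes name limma. Background correction and centring behind that table stay unknown. Its columns ran as Cy5 over Cy3, with r of 0.992 to 0.998 against the ratios computed here and medians of -0.00543 to 0.00486.

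Here limma 3.58.1 (R 4.3.3) took the intensities through normexp with an offset of 50, then loess within each array with 1075 control spots at weight 0. Flagged outlier spots (60 to 173 per array) were left out and saturated spots kept. Log2 ratios were turned to TaSK5 over wild type, and arrays of a transformant averaged. Genes were tested where the probe was well above background in all 4 TaSK5 or all 4 wild-type channels and both transformants had a value. The 2 means were tested against 0 with lmFit and eBayes (1 residual plus 2 prior degrees of freedom, two-sided), adjusted by Benjamini-Hochberg over 18854 genes. The code of the fit was run on simulated data whose spread was not matched to these arrays, so it says nothing of the power here. P-values set the mean against the spread between 2 plants, which eBayes moderated towards the spread over all genes. No other plants enter them, and precision is limited by the 4 arrays. Channel levels used Aquantile after loess.

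Loess hides any shift shared by most transcripts, and the offset shrinks ratios of dim spots. Names came from a RefSeq gene table (TAIR10.1) that held 21191 of 21500 loci. Coordinates are left out because the probes come with no genome build. Neither probe nor promoter sequences were used here, so cross-hybridisation between close relatives such as NAC019 and NAC055 was not checked.

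The members and gene lists were chosen with earlier results of these data known. Named besides the 9 members were, per list of targets or regulators, the 4 highest and 2 lowest means and further direct targets or partners, of other NAC genes the 3 highest and 3 lowest means, and 3 genes nearest each subgroup by Euclidean distance over 4 arrays. Replicate numbers mark dye orientation and pair no plants. Results were recomputed under 17 other settings, and 2 ways of setting channel levels were added after seeing the data.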

Additional observations from a re-analysis of the deposited data

Results flagged for a closer look

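NAC102 had opposite signs in the transformants: both OX17 arrays lay below wild type, at -0.28 and -0.08, and both OX7 arrays above it, at 0.03 and 0.30. The difference of log2 ratios, OX17 minus OX7, was -0.35 and was not tested, since each transformant is 1 plant. The signal of NAC102 was higher on the OX17 arrays in both genotypes, by 0.25 in TaSK5 channels and by 0.60 in wild-type channels.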

How the results depend on the processing

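With 4 arrays as independent samples limma called 66 genes higher and 13 lower, and with the replicate number (dye orientation) as a replicate block 1 gene higher; these fits count 4 samples in place of 2. With the block no NAC gene passed, as in the fit on transformant means, whereas NAC019 (adjusted p = 0.126 with the block) and RD26 (0.184) had passed with 4 independent arrays, at 0.011 and 0.0306. Median centring left 4 NAC genes higher on all 4 arrays, and the scanner program's log ratios left 7. With OX17 alone, 1 NAC gene was lower on both arrays and 5 were at least 2-fold higher on both. The mean log2 ratio of NAC102 turned to 5e-04 with the scanner program's log ratios, 0.038 with scaling between arrays and 0.17 with OX7 alone, and leaving out single arrays gave between -0.073 and 0.062. OX17 minus OX7 reversed to -0.70 for NAC019 and -0.41 for RD26 with scaling between arrays, and to 0.0074 for ATAF1 with median centring; the causes were not tested. Over the settings with both transformants, the mean log2 ratio ranged from 2.01 to 2.31 for NAC019, 1.90 to 2.21 for RD26, 0.73 to 1.47 for NAC055, 1.19 to 1.54 for NAP and 1.36 to 1.87 for ORE1. The wild-type channel difference of ORE1 was -1.94 with quantile normalisation and -2.30 from the scanner program's signals, and that of NAP -1.23 and -1.36, both chosen after seeing the data. For NAC055 the mean was 0.73 without background correction, 1.21 with an offset of 16 and 1.47 with the scanner program's log ratios. All results are limited by having 2 plants.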
